A study of Mus musculus with 2 samples.

Results

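Late erythroid cells rich in haemoglobin transcripts were described in single-cell RNA libraries of alveolar bone, the tooth-bearing bone of the jaw, from mice. A member was a cell barcode with at least 1000 UMIs (unique molecular identifiers, each standing for 1 captured transcript), at most 20% of them mitochondrial, and at least 25% of them from the adult haemoglobin genes Hba-a1, Hba-a2, Hbb-bs and Hbb-bt. Of 21809 barcodes that passed the first 2 limits, 1091 were members. They were 131 of 9365 barcodes in library 1, which is 1.40% (95% Clopper-Pearson interval 1.17 to 1.66%), and 960 of 12444 in library 2, which is 7.71% (7.25 to 8.20%). The members were chosen by their haemoglobin share, so that share and the levels of the 4 haemoglobin genes are descriptions and support nothing else.

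The study concerned orthodontic tooth movement in C57BL/6J mice aged 6 to 8 weeks. In the force group a nickel-titanium coil spring pulled the upper right first molar at 25 g, and control mice carried the spring without force. The study used 12 mice. Bone up to 1 mm from the tooth socket was collected on day 7, pooled from 6 mice per group, digested for 60 min and treated for 10 min with a red cell lysis buffer. Neither library's label gives its group, so the libraries are numbered 1 and 2 and no effect of force is reported. Each library is 1 pool, so there is no replicate error and no test was made. Every interval covers counting error only, and differences between the libraries have no error estimate.

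Red cells arise in marrow from nucleated erythroblasts, which combine a last series of divisions with the build-up of haemoglobin and of a specialised membrane. The cell then expels its nucleus and becomes a reticulocyte, which still holds RNA and goes on to clear its mitochondria and ribosomes. Lysis buffers of the kind used here are meant to remove mature red cells.

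The label was checked with 2 red cell markers that the rule did not use. Levels are given in CPM, the UMIs of a gene in every 1000000 UMIs outside the 4 haemoglobin genes, summed over the cells of a class. Slc4a1, the band 3 anion exchanger of the red cell membrane, lay at 3059.5 CPM in the members of library 1 and 3655 CPM in those of library 2, against 6.61 and 22.0 CPM in all other barcodes. Ahsp, the chaperone of free alpha globin, lay at 8139 and 10476 CPM, against 23.7 and 79.2 CPM. Both genes were over 100-fold higher in the members of each library, so the erythroid label holds by these markers for the members as a whole. The check does not cover each member. As given below, both genes had few UMIs per cell in the top haemoglobin range. Slc4a1 was also lower in a few members with many macrophage transcripts.

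The libraries held 77572847 and 116775367 UMIs in named genes. No member shared its barcode sequence with a member of the other library, while 75 barcode sequences occurred among the passing cells of both, and 3 members of library 2 were among these. Free haemoglobin RNA differed between the libraries: in barcodes with 1 to 100 UMIs, which hold mostly RNA from outside cells, haemoglobin made up 0.696% of the UMIs in library 1 and 4.37% in library 2. The median passing barcode that was neither a member nor erythroid by other genes held 0.0201% and 0.120%.

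The haemoglobin share ran from the limit to 93.6% in library 1 and 96.3% in library 2, and every step of 5 percent up to 95% held cells, with the fewest in library 1 from 45 to 60% (3, 4 and 1 cells). The members were divided into 4 ranges, 25 to 50%, 50 to 75%, 75 to 90% and 90% or more, which held 53, 28, 30 and 20 cells in library 1 and 237, 291, 214 and 218 cells in library 2. Cells with 75% or more made up 38.2% of the members of library 1 and 45% of those of library 2. Near the limit, 10 and 39 barcodes held 20 to 25% haemoglobin, and 11 and 51 held 25 to 30%. The barcodes just inside carried Slc4a1 at 3752 and 2381 CPM and those just outside at 2764 and 1729 CPM. At least 3 of the 8 erythroid genes were found in 10 of 11 and 40 of 51 barcodes just inside and in 4 of 10 and 28 of 39 just outside. S100a8, a neutrophil gene, lay at 2923 and 6503 CPM just inside and at 10330.0 and 20498 CPM just outside.

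**Figure D1:**
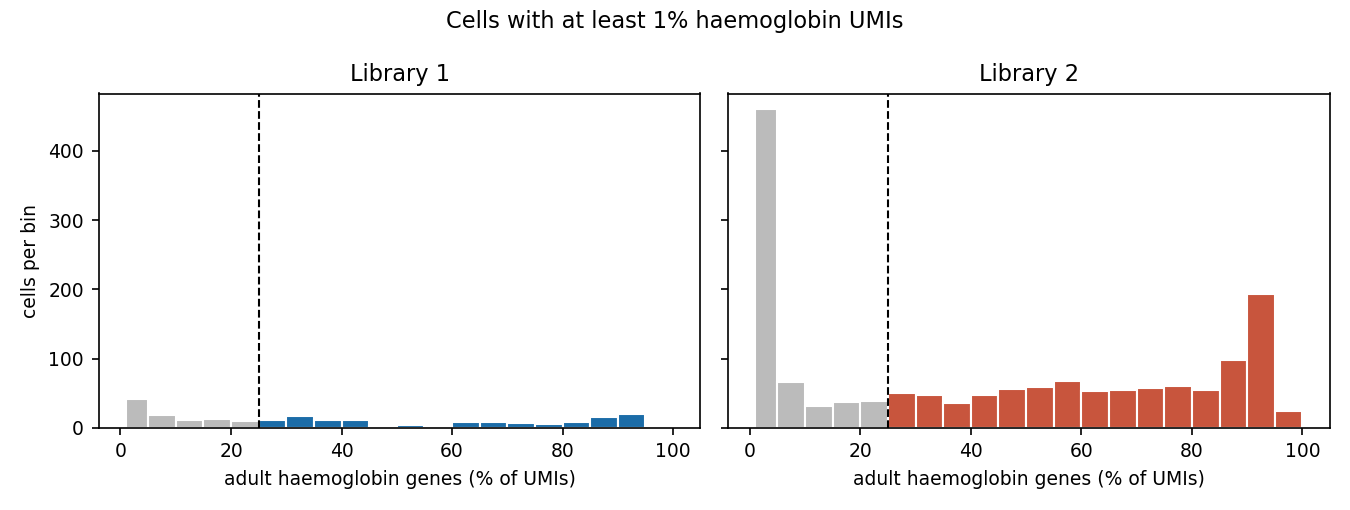
Number of cells (vertical axis) by the share of UMIs from the 4 adult haemoglobin genes (horizontal axis, percent), in each library, for cells with at least 1% haemoglobin. The dashed line is the 25% limit, above which 131 cells of library 1 and 960 of library 2 lie, and in both libraries the counts per 5 percent climb again above 85%.

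As the haemoglobin share increased, fewer UMIs lay outside haemoglobin. These UMIs are part of the share that sorts the cells, so some of this trend is built into the ranges. How much of it is a loss of RNA was not tested. The median member had 2781 UMIs in library 1 and 4720 in library 2, of which 877 and 968.5 lay outside haemoglobin. Over the 4 ranges the median UMIs outside haemoglobin were 1770, 880.5, 395.5 and 358 in library 1 and 2926, 1473, 676.5 and 370 in library 2. The median haemoglobin UMIs were 905, 1622, 1982.5 and 4515 in library 1 and 1762, 2539, 3800.5 and 5117.5 in library 2. A cell in the top range therefore held about as many or more UMIs in all than one in the lowest range, with far fewer from other genes. Each cell needed 1000 UMIs to be counted, and a cell with 90% haemoglobin meets that limit with 100 UMIs of other genes.

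Fewer genes were seen per cell as well. Median genes per cell were 950, 535, 256 and 255.5 over the ranges in library 1 and 1309, 732, 369 and 202.5 in library 2, at unequal depths. After each cell was thinned to 300 UMIs outside haemoglobin, the medians were 239, 229, 205.5 and 204.5 in library 1 and 242, 225, 200 and 172 in library 2. Cells with fewer than 300 such UMIs were left out: 0, 0, 8 and 6 cells over the ranges in library 1 and 0, 0, 42 and 75 in library 2. At equal depth the transcripts of the top range thus fell on fewer genes than those of the lowest range in both libraries. The genes used below to recognise erythroid cells under the limit thinned out too: at least 3 of the 8 were seen in 44 of 53, 9 of 28, 2 of 30 and 0 of 20 cells over the ranges in library 1 and in 194 of 237, 197 of 291, 49 of 214 and 3 of 218 in library 2. Mitochondrial transcripts made up no smaller share in the top than in the lowest range, at 1.79, 1.85, 3.73 and 2.01% of the UMIs outside haemoglobin in library 1 and 2.09, 2.29, 3.39 and 4.67% in library 2. Their number per cell fell, from 44.7 UMIs in the lowest to 8.2 in the top range of library 1 and from 85.2 to 19.7 in library 2.

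**Figure D2:**
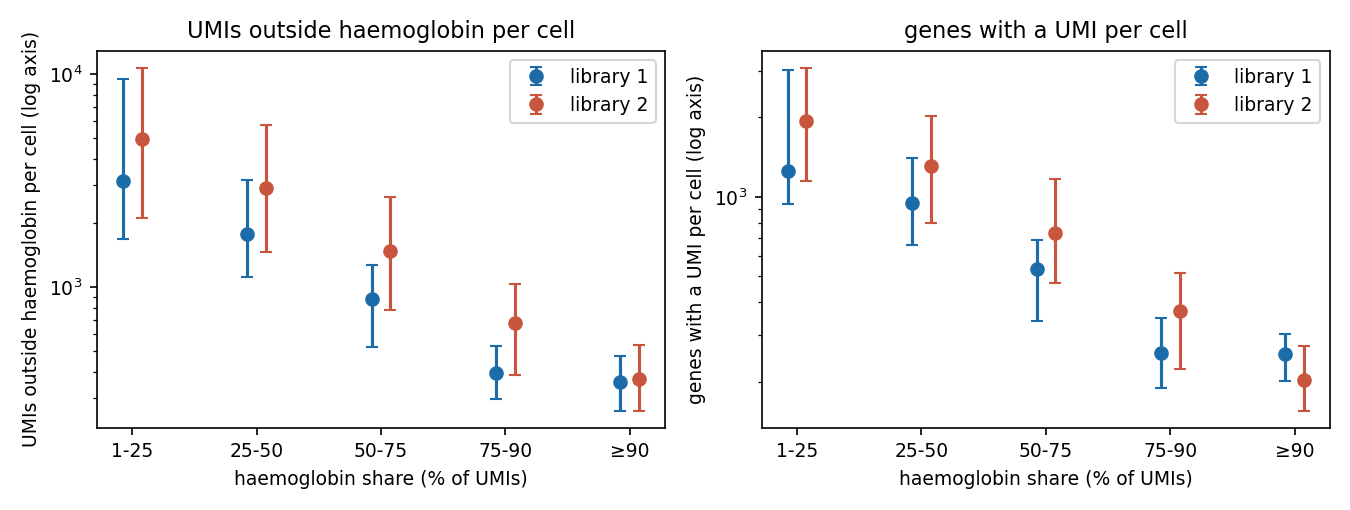
UMIs and genes per cell (vertical axes, log scale) by haemoglobin range (horizontal axis, percent of UMIs, the leftmost point being erythroid cells with 1 to 25%), with medians as points and quartiles as bars for both libraries. UMIs outside haemoglobin fall from a median of 1770 to 358 and from 2926 to 370 between the lowest and the top range of the members.

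The 4 genes that chose the members did not keep a fixed ratio to each other. Adult mouse haemoglobin is made of alpha chains, encoded by Hba-a1 and Hba-a2, and beta chains, encoded in this strain by Hbb-bs and Hbb-bt. Hbb-bt fell relative to Hbb-bs: the ratio of their UMIs was 0.299, 0.242, 0.221 and 0.187 over the ranges in library 1 and 0.324, 0.266, 0.247 and 0.221 in library 2. In erythroid cells with 1 to 25% haemoglobin, defined below, it was 0.578 (0.554 to 0.603) and 0.424 (0.417 to 0.431). The share of Hbb-bt in the beta chain UMIs of the median cell went the same way, from 23.1% to 16.4% in library 1 and from 24.8% to 18.0% in library 2. The ratio in barcodes with 1 to 100 UMIs was 0.235 and 0.247, between the values of the 50 to 75% range and the top range of the members.

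Hba-a2 moved the other way against Hba-a1. Its ratio was 0.556, 0.771, 0.869 and 0.854 in library 1 and 0.639, 0.786, 0.954 and 0.954 in library 2, after 0.427 and 0.496 in the cells with 1 to 25%. The last step was flat in both libraries. The 2 alpha genes are nearly identical, reads can fall on either, and how the counts were divided between them is not given in the sources used here, so this ratio is uncertain. How any reads shared by Hbb-bs and Hbb-bt were divided is not given either, and the counting intervals of their ratio do not cover it. The ratio of all alpha to all beta UMIs lay between 1.2 and 1.26 over the ranges in library 1 and between 1.08 and 1.12 in library 2, and had no common direction. Embryonic globins were almost absent, with 0 UMIs of Hbb-y, Hbb-bh1 and Hba-x in library 1 and 8, 1 and 2 in library 2, beside 309743 and 3748993 UMIs of adult haemoglobin. The theta-like genes Hbq1b and Hbq1a had 23 and 4 UMIs in library 1 and 221 and 56 in library 2.

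**Figure D3:**
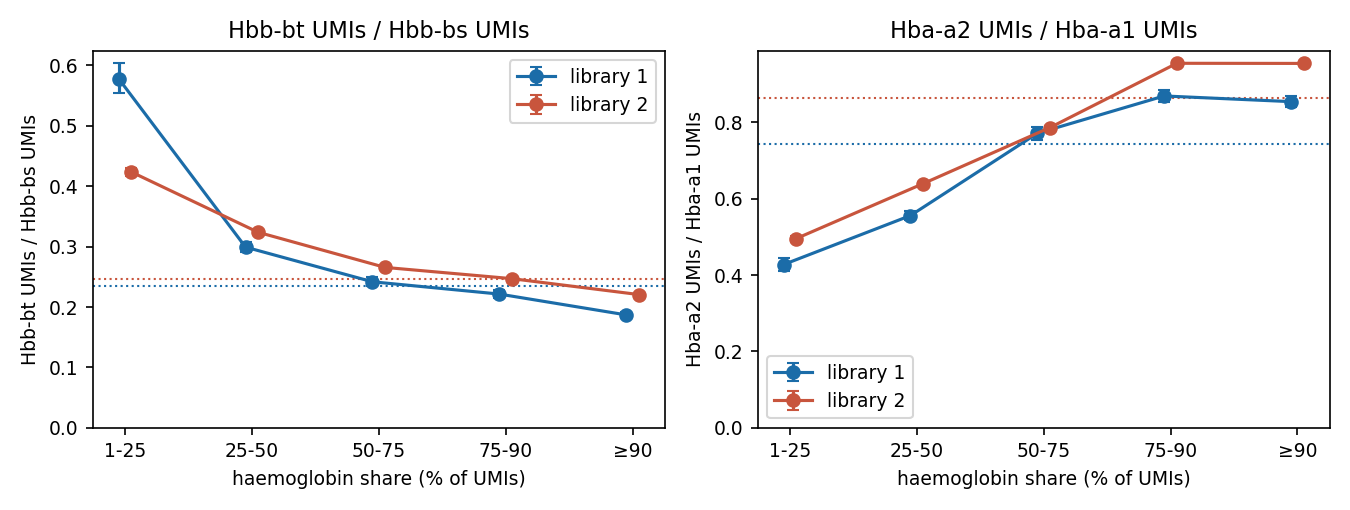
Ratio of Hbb-bt to Hbb-bs UMIs and of Hba-a2 to Hba-a1 UMIs (vertical axes) by haemoglobin range (horizontal axis, percent of UMIs), as points with 95% counting intervals for both libraries, with dotted lines for the ratio in barcodes of 1 to 100 UMIs. Hbb-bt declines to 0.187 and 0.221 of Hbb-bs in the top range, while Hba-a2 climbs from 0.556 and 0.639 of Hba-a1 to 0.854 and 0.954.

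The promoters of these genes, and of Alas2 described below, are shown because their transcripts make up or accompany the haemoglobin that defines the cells. Each sequence is the 250 bases before the start of the gene, from RefSeq on GRCm38.p6, read 5′ to 3′ along the gene. Capitals mark 4 motifs searched on both strands. The first is AGATAA, a form that the erythroid factor Gata1 is known to bind, and TGATAA is a second such form. The third is CCNCNCCC, where N is any base, which the erythroid factor Klf1 is known to bind. The last is ATATAA, a form of the box that places the start of transcription. They lie at chr11:32283422-32283671 on the plus strand for Hba-a1, chr11:32296242-32296491 plus for Hba-a2, chr7:103827929-103828178 minus for Hbb-bs, chr7:103813924-103814173 minus for Hbb-bt and chrX:150547167-150547416 plus for Alas2.
Hba-a1: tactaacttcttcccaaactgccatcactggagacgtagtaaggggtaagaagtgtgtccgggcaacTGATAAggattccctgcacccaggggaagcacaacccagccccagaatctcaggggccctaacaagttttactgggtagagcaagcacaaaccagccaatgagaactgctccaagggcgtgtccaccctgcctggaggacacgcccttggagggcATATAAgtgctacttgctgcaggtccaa
Hba-a2: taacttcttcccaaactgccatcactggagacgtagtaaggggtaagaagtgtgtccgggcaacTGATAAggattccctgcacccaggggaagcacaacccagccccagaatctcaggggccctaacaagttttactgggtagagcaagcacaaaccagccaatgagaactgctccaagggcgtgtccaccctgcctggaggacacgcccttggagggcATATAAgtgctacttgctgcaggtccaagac
Hbb-bs: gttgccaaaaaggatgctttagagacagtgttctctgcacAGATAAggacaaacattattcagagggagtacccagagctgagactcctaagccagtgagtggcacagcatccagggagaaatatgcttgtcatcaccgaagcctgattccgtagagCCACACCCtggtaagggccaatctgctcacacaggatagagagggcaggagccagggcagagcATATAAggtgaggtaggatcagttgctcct
Hbb-bt: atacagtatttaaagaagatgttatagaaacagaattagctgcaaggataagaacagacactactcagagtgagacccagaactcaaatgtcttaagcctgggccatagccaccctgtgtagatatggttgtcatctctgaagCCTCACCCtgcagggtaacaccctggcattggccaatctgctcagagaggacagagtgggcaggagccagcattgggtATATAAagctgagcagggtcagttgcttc
Alas2: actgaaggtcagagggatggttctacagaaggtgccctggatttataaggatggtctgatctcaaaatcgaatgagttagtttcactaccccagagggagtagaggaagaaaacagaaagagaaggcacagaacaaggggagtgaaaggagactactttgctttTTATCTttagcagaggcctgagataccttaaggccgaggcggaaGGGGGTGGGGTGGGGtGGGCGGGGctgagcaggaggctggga

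In these windows ATATAA starts 28, 31, 30 and 29 bases before Hba-a1, Hba-a2, Hbb-bs and Hbb-bt, and does not occur before Alas2. TGATAA starts 183 bases before Hba-a1 and 186 before Hba-a2. AGATAA starts 210 bases before Hbb-bs, and lies 86 bases before Alas2 on the opposite strand. CCNCNCCC occurs 93 bases before Hbb-bs and 107 before Hbb-bt, and in 4 places that start 42, 40, 35 and 26 bases before Alas2 on the opposite strand. Of 32851 promoters of this length, 9.99% hold AGATAA, 7.94% TGATAA, 45.9% CCNCNCCC and 9.10% ATATAA, so CCNCNCCC is common and a match is only a description of the letters. With their starts offset by 3 bases, the windows of Hba-a1 and Hba-a2 are the same in 247 of 247 paired bases, while those of Hbb-bs and Hbb-bt are the same in 182 of 242 paired bases (75.2%).

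The members were next set against all other barcodes, erythroid cells under the limit included. The haemoglobin limit itself made this contrast, so its values are descriptions. Levels are summed over cells, so cells with more UMIs outside haemoglobin weigh more. The 25 to 50% range held 132369 of the 189574 such UMIs of the members in library 1 and 963381 of 1834751 in library 2. The cells with 75% or more held 22034 and 269971. A gene was called higher or lower when it differed at least 2-fold in the same direction in both libraries, and genes of the haemoglobin families were left out. Of 5676 genes measured, 910 were higher (16.0%) and 983 lower (17.3%), around a median log2 ratio of -0.061 in library 1 and -0.354 in library 2. Haemoglobin itself fills most of a member's UMIs, so the scale matters. With all UMIs as the denominator every log2 ratio of a library is lower by the same amount, the median becomes -1.46 and -1.95, and 346 genes were higher and 3573 lower.

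Haem synthesis was higher in the members: 8 of 8 enzymes of the list were called, with a median log2 ratio of 5.81 in library 1 and 5.39 in library 2. Alas2, which makes the first intermediate of haem in erythroid cells, lay at 4083 CPM in library 1 and 5274 CPM in library 2, against 3.50 and 13.6 CPM elsewhere. Those are ratios of 1165-fold (95% interval 991 to 1376) and 389-fold (95% interval 365 to 415), the highest of any gene by the smaller of both libraries. Fech, which puts iron into the ring, was 70.2-fold and 57.5-fold higher. Of 12 measured genes of iron handling, 6 were higher and none lower, and the median log2 ratio of 1.60 and 1.09 becomes 0.21 and -0.51 with all UMIs as the denominator. The higher ones included the transferrin receptor Tfrc (1551 and 1592 CPM against 83.1 and 97.5) and mitoferrin Slc25a37 (1962 and 2062 CPM against 114 and 71.8). The ferritin chains Fth1 and Ftl1 did not pass 2-fold in both libraries.

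The red cell membrane was higher as well. Of 13 genes of the membrane skeleton, 11 were higher, with a median log2 ratio of 6.79 and 5.98. Epb42, protein 4.2, lay at 417 and 572 CPM against 1.09 and 3.0 CPM. The exceptions were Actb and Tpm1, which many cell types use. Of 19 measured transporters and blood group antigens, 18 were higher, among them Rhag, of the Rh antigen complex, at 644 and 632 CPM against 3.30 and 7.45 CPM. The exception was Slc2a1, the common glucose transporter, which was lower, at 15.8 and 14.2 CPM against 39.8 and 40.3 CPM on only 3 and 26 UMIs.

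Of 16 erythroid transcription factors and partners, 10 were higher and none lower, including Gata1 (89.7 and 162 CPM against 9.66 and 10.6), Klf1 (290.1 and 433 against 2.70 and 6.95) and Tal1. Of 6 measured regulators of progenitors, 4 were lower, among them Myb and Myc. Epor, the erythropoietin receptor, was higher at 137 and 134 CPM against 4.99 and 5.06 CPM. Its survival target Bcl2l1 was also higher, while the other 7 of 10 measured signalling genes passed in neither direction and Gas6 was lower. All 15 genes of G2 and M phase and 12 of 14 of S phase were higher, and Mki67, a marker of cycling cells, lay at 5175 and 5717 CPM against 370.1 and 402 CPM. This does not hold over all ranges: as given below, Mki67 in the top range lay under the level of all other barcodes in both libraries. With all UMIs as the denominator the median log2 ratio of G2 and M phase goes from 2.95 and 3.02 to 1.55 and 1.42, and that of S phase from 1.77 and 1.55 to 0.38 and -0.05.

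Of 10 measured genes of glycolysis, 7 were lower, such as Gapdh (227 and 264 CPM against 769 and 1063) and Ldha. Only Hk1 and Bpgm were higher, and Bpgm, which makes the bisphosphoglycerate that lowers the oxygen affinity of haemoglobin, lay at 997 and 1333 CPM against 21.3 and 30.7 CPM. Of 17 antioxidant genes 9 were higher, led in level by Gpx1, glutathione peroxidase, at 13187 and 16526 CPM against 1033 and 1362 CPM. Of 3 measured carbonic anhydrases Car1 and Car2 were higher and Car3 was lower. Of 14 measured genes of ubiquitin and proteolysis, 11 were higher, among them Trim10 at 512 and 752 CPM against 0.914 and 3.05 CPM.

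Lists for the last steps of maturation were mixed. Of 10 measured genes of autophagy and mitochondrial clearance, 5 were higher, Bnip3l and Pink1 among them, and Map1lc3a was lower. Of 14 measured genes of enucleation and chromatin 7 were higher, such as Riok3 and Xpo7, and 2 were lower, among them Rac2. Of 10 genes of cell cycle exit 4 were higher, including the cyclin-dependent kinase inhibitors Cdkn1b, Cdkn2c and Cdkn2d, and Cdkn1a was lower. The medians of these 3 lists were above 0 in both libraries (0.96 and 1.41, 0.92 and 1.14, 0.85 and 1.04) but below 0 with all UMIs as the denominator (-0.44 and -0.19, -0.48 and -0.46, -0.55 and -0.56). Of 10 translation factors Npm1 and Fbl were lower and none higher. Granule genes of neutrophils and their progenitors were among the 12 lowest, such as Mpo, myeloperoxidase, at 89.7 and 147 CPM against 685 and 1466 CPM, and Elane, Prtn3 and Ctsg.

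Within the lineage, the members were compared with erythroid cells below the limit. Whether these classes are successive stages was not tested. The cells below the limit carried at least 3 of 8 erythroid genes (Klf1, Epor, Rhag, Ermap, Car1, Cldn13, Hemgn and Gata1), which were left out of the comparison. Members did not have to carry them, and 55 of 131 and 443 of 960 had at least 3. As first written the class held 81 and 210 cells, of which 52 and 90 had under 1% haemoglobin, and the platelet gene Pf4 lay at 20749 and 14814 CPM in it, and megakaryocytes are known to share Gata1 and other of these genes. In that comparison 681 of 5724 genes were higher (11.9%) and 1055 lower (18.4%), around a median log2 ratio of -0.127 and -0.338. With all UMIs as the denominator 92 were higher and 3574 lower, around -1.50 and -1.88. All 8 haem enzymes and 11 of 13 skeleton genes were higher, and 7 of 10 translation factors were lower. The 12 lowest included the megakaryocyte genes Pf4, Itga2b and Ppbp. A narrower class, chosen after this was seen, held cells with 1 to 25% haemoglobin and under 0.1% of UMIs in megakaryocyte markers, 29 in library 1 and 113 in library 2. Its median cell had 3160 and 4951 UMIs outside haemoglobin, against 877 and 968.5 in the members, so the depths were unequal. Against the narrower class 174 of 3295 genes were higher in the members (5.28%) and 110 lower (3.34%), around a median log2 ratio of -0.065 and -0.157. With all UMIs as the denominator those counts became 19 and 1914, around -1.30 and -1.56.

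Bpgm led the genes that were higher than in cells with 1 to 25%. It lay at 997 and 1333 CPM in the members against 83.7 and 76.7 CPM, ratios of 11.9-fold (95% interval 6.92 to 22.2) and 17.4-fold (95% interval 13.7 to 22.4). Tent5c, which lengthens poly(A) tails, was 16.4-fold and 11.7-fold higher. Xpo7, a nuclear exporter used when erythroblast chromatin condenses, was 8.43-fold and 13.5-fold higher, with 9 UMIs in the smaller class of library 1. Alas2 was 8.54-fold and 8.52-fold higher. The 12 highest also included Cmss1, Slfn14, Mkrn1, Slc25a39, Camk1d, Ube2l6 and Tmcc2, and each of the 12 remained at least 2-fold higher with all UMIs as the denominator.

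By role, 8 of 14 genes of ubiquitin and proteolysis were higher (median log2 1.2 and 1.32), a group that would have a median of -0.035 and -0.086 with all UMIs as the denominator. They included Ube2o, an enzyme that marks surplus proteins in reticulocytes, and Ube2l6, at 1714 and 1912 CPM against 263 and 337. Of 9 measured genes of autophagy and mitochondrial clearance 4 were higher, among them Bnip3l, which reticulocytes need to clear mitochondria, at 897 and 1001 CPM against 221 and 176. Of the 8 haem enzymes, Alas2 and Fech were higher and the other 6 passed in neither direction, and the list's median of 0.51 and 0.80 becomes -0.73 and -0.60 with all UMIs as the denominator. In the membrane, 3 of 13 skeleton genes, among them Epb41 and Epb42, and 4 of 16 measured transporters and antigens, among them Slc4a1, Ackr1 and Art4, were higher. Eif2ak1, the kinase that slows translation when haem is short, and Ahsp were both higher.

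Several ribosomal protein genes and 3 mitochondrial genes were among the 12 lowest in the members. Rps2 lay at 1403 and 1457 CPM against 3875 and 4139 CPM, and Rpl12, Rps18 and Rpsa were also among the 12 lowest, as were mt-Nd1, mt-Nd2 and mt-Nd5, subunits of respiratory complex I. Summed, the 37 mitochondrial genes were not lower in CPM, at 19523 and 24119 CPM in the members against 19116 and 21780.0 CPM in the cells with 1 to 25%. Per cell they were lower, at 28.3 and 46.1 UMIs against 110 and 176. Of 9 measured translation factors only Npm1 passed, and it was lower. Of 14 S phase genes Mcm3 and Hells were lower and the other 12 passed in neither direction, and of 15 genes of G2 and M phase Ube2c alone passed, as higher. Prtn3 and Mpo, proteases and enzymes of granulocyte progenitors, were the first and the third lowest. With a haemoglobin limit of 15% neither was past 2-fold in both libraries, the smaller of the 2 log2 differences being -0.93 and -0.40, and neither passed with a mean over cells. The neutrophil gene S100a8 lay at 8245 and 5835 CPM in the cells with 1 to 25% and at 5191 and 7767 CPM in the members, and the part of RNA from other cells in these values was not tested.

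Within the members, 690 genes could be compared between cells with 75% haemoglobin or more and those with 25 to 75%. Of them 65 were higher (9.42%) and 105 lower (15.2%), around a median log2 ratio of -0.169 and -0.399. With all UMIs as the denominator the median was -2.45 and -2.58, 565 genes were lower, and the 5 that were higher were Cmss1, Gm19951, Camk1d, Bpgm and Cdk8. A higher level here is a larger share of the fewer UMIs outside haemoglobin, and UMIs per cell are given beside it.

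Cell cycle transcripts declined within the members. All 4 measured S phase genes and 7 of 8 of G2 and M phase were lower in the cells with 75% or more. Mki67 lay at 6089, 4777, 360.4 and 245 CPM over the 4 ranges in library 1 and 5966, 7118, 2398 and 359 CPM in library 2, or 15.2, 6.0, 0.167 and 0.1 UMIs per cell in library 1 and 24.3, 14.7, 2.0 and 0.151 in library 2. Between 25 to 50% and 50 to 75% haemoglobin the S phase list fell in CPM in both libraries. It went from 5575 to 1763 CPM in library 1 and from 6631 to 3763 CPM in library 2. The G2 and M list went from 14331 to 12254 and from 14688 to 18324 CPM. Per cell both lists fell at this step. S phase went from 13.9 to 2.21 UMIs per cell in library 1 and from 27.0 to 7.78 in library 2. G2 and M phase went from 35.8 to 15.4 and from 59.7 to 37.9. In the top range 0 UMIs of Rrm2, a subunit of the enzyme that makes deoxynucleotides, were seen in 20 cells of library 1 and 9 in 218 cells of library 2, after 126 in 53 and 1078 in 237 cells of the lowest range. Dek, Birc5, Smc4, Ccnb2 and Lbr, genes of chromatin and mitosis, were among the 12 lowest. Both S phase and G2 and M phase declined by UMIs per cell as well.

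Some transcripts kept their number per cell, while 565 of 690 genes were lower with all UMIs as the denominator. Of the 5 genes that were higher on that scale, only Bpgm is among those given here. Cmss1, Gm19951, Camk1d and Cdk8 are not. Alas2 had 4.62, 7.25, 6.33 and 6.80 UMIs per cell over the ranges in library 1 and 8.13, 9.82, 11.5 and 11.2 in library 2, and its share of the other RNA went from 1851 to 16669 CPM and from 2000.2 to 26495 CPM. Bpgm had 0.491, 1.54, 2.33 and 2.50 UMIs per cell in library 1 and 0.954, 1.67, 4.85 and 3.19 in library 2. Ube2l6 had 2.17, 2.96, 2.07 and 3.25 in library 1 and 3.22, 3.51, 4.14 and 3.84 in library 2. Tent5c had 1.23, 1.71, 2.30 and 2.05 in library 1 and 1.55, 2.51, 3.88 and 2.02 in library 2. Bnip3l had 1.04, 1.54, 1.63 and 1.15 in library 1 and 1.72, 1.78, 2.52 and 1.72 in library 2. Alas2, Bpgm, Ube2l6 and Tent5c were each higher per cell in the top than in the lowest range of both libraries, while Bnip3l ended close to where it began. UMIs per cell are not scaled for depth. The median cell of the lowest and of the top range held 2532 and 4860 UMIs in library 1. In library 2 it held 4407 and 5467.

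Other transcripts central to the red cell had fewer UMIs per cell in the high ranges. Ahsp had 18.2, 18.4, 1.63 and 0.85 UMIs per cell over the ranges in library 1 and 32.4, 31.0, 10.5 and 1.35 in library 2, and its level was 7268, 14643, 3532 and 2084 CPM in library 1 and 7960.5, 14990.0, 12585 and 3209.9 CPM in library 2. Slc4a1 had 6.91, 6.61, 0.767 and 0.3 UMIs per cell in library 1 and 11.9, 9.89, 4.08 and 0.56 in library 2. Both were highest in CPM at 50 to 75% in library 1, and in library 2 Ahsp was highest there too while Slc4a1 was highest at 75 to 90%. Transcription factors were scarce at the top: Klf1 had 0 UMIs in the top range of library 1 and 4 in that of library 2, and Gata1 0 and 1, at median depths of 358 and 370 UMIs outside haemoglobin.

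**Figure D4:**
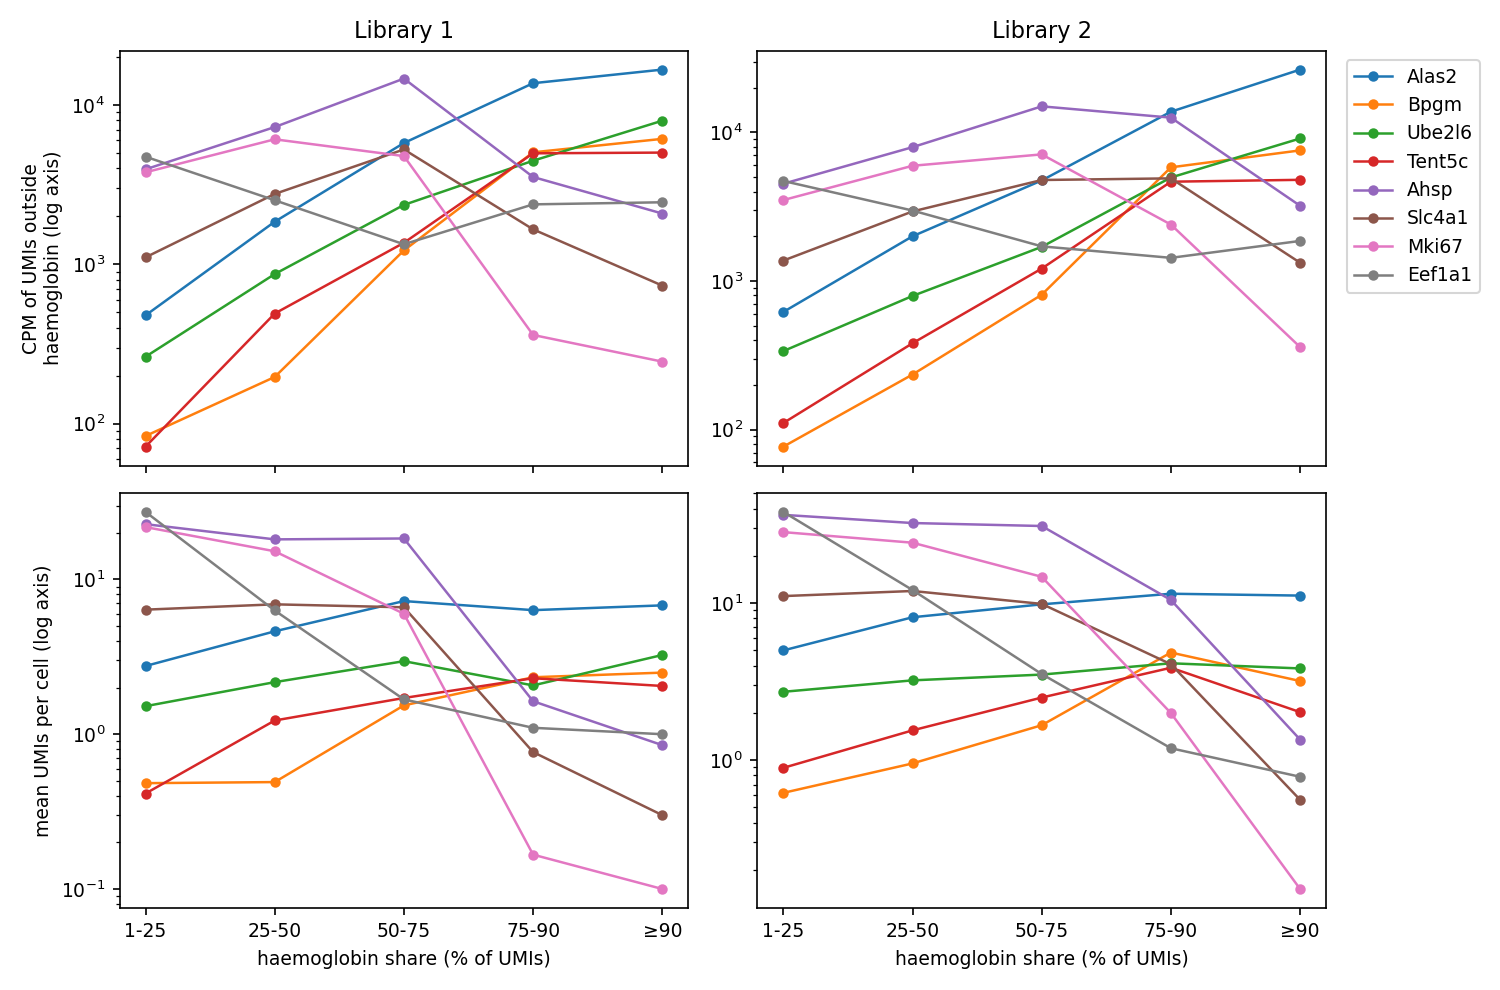
Levels of 8 genes in CPM outside haemoglobin (top, log axis) and mean UMIs per cell (bottom, log axis) by haemoglobin range (horizontal axis, percent of UMIs), for each library. Alas2, Bpgm, Ube2l6 and Tent5c climb in CPM, a scale relative to the RNA outside haemoglobin, and are no lower in UMIs per cell at the top than at the lowest range of the members, whereas Ahsp, Slc4a1, Mki67 and Eef1a1 fall in UMIs per cell.

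The haem enzymes parted ways. Alas2 was 5.53-fold (95% interval 4.78 to 6.40) higher in library 1 and 5.92-fold (95% interval 5.69 to 6.17) in library 2 in the cells with 75% or more. Alad and Cpox were lower, and the other 3 of 6 measured, Fech among them, passed in neither direction. Cpox had 189, 33, 0 and 0 UMIs over the ranges of library 1 and 1499, 945, 81 and 12 in library 2. Fech, the last enzyme, lay at 922, 1876, 1514 and 2084 CPM in library 1 and 930.1, 1621, 2510.3 and 2546 CPM in library 2. The list as a whole, carried by Alas2, went from 7615 to 18997 and from 8165 to 30031 CPM between the lowest and the top range, but its UMIs per cell went from 19.0 to 7.75 and from 33.2 to 12.7, and its log2 change would be -1.63 and -1.32 with all UMIs as the denominator.

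Among the other roles, 5 of 11 measured genes of ubiquitin and proteolysis were higher and 1, Ubac1, lower in the cells with 75% or more, with a median log2 ratio of 0.72 and 1.61 that becomes -1.56 and -0.57 with all UMIs as the denominator. Ubb, a ubiquitin gene, lay at 2659, 4606, 7928 and 10173 CPM over the ranges in library 1 and 2671, 4789, 14304 and 22491 CPM in library 2. Of 12 measured antioxidant genes Cat, Gpx1 and Isca1 were higher and none lower. Of 12 measured genes of the membrane skeleton Epb41 and Mpp1 were higher and Sptb and Ank1 lower, and the other 8 passed in neither direction. Over all 690 genes compared, 9.42% were higher and 15.2% lower. Of 11 measured transporters and antigens Gypc, Rhd and Aqp1 were lower and none higher. The lists higher at least 2-fold in the top than in the lowest range in both libraries were haem synthesis, autophagy, ubiquitin, and glycolysis with Bpgm, and each was lower with all UMIs as the denominator. The glycolysis list was carried by Bpgm, which made up most of its UMIs in the top range of both libraries.

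Transcripts of the translation machinery fell steeply in UMIs per cell over the ranges. The 95 ribosomal protein genes had 1081 UMIs per cell at 1 to 25% haemoglobin in library 1 and 282, 64.0, 33.4 and 27.9 over the 4 ranges, and in library 2 1367 and then 474, 147, 47.1 and 30.6. In CPM they lay at 187500.0 and then 113050.0, 50923, 72288 and 68513 in library 1, and at 169220.0 and then 116550.0, 70975, 56664 and 72597 in library 2. The lowest CPM was at 50 to 75% in library 1 and at 75 to 90% in library 2, and the top range lay above it in both. In barcodes with 1 to 100 UMIs the same genes lay at 102470.0 and 115490.0 CPM. Eef1a1, an elongation factor, went from 27.3 to 1.0 UMIs per cell and from 38.1 to 0.784.

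**Figure D5:**
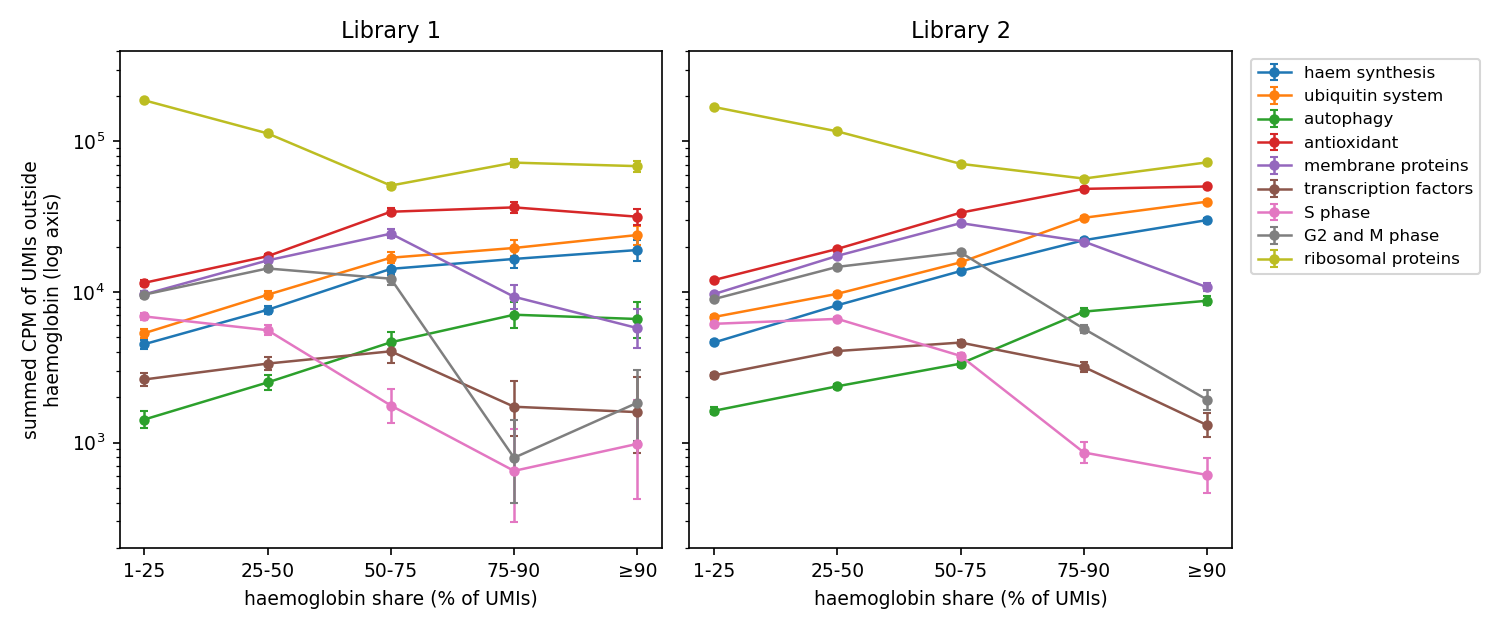
Summed level of gene lists in CPM outside haemoglobin (vertical axis, log scale) by haemoglobin range (horizontal axis, percent of UMIs) in each library, with 95% counting intervals as bars. Haem synthesis climbs from 7615 to 18997 and from 8165 to 30031 CPM between the lowest and the top range of the members, an order that reverses with all UMIs as the denominator, as do those of autophagy and the ubiquitin system, while the cell cycle lists and ribosomal proteins drop.

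In the median cell, markers of 8 other cell types together took a growing share of the RNA outside haemoglobin. Summed over cells the single lists differed and did not all climb steadily. Macrophage markers were lower in the top than in the lowest range of both libraries. Over 52 markers of 8 other cell types, the median share of the UMIs outside haemoglobin was 1.22, 3.05, 5.24 and 7.85% over the ranges in library 1 and 1.03, 1.42, 2.57 and 4.30% in library 2. Members with at least 5% of such UMIs numbered 44 of 131 and 194 of 960, of which 18 and 83 were in the top range. The 8 neutrophil markers summed to 6542, 21978, 36324 and 36769 CPM over the ranges in library 1 and 16012, 15658, 19285 and 26245 CPM in library 2, with Ly6g at 0 in both lower ranges of library 1. The 8 macrophage markers summed to 2327, 2929, 504.5 and 735.4 CPM in library 1 and to 1074, 610.2, 95.5 and 195.9 CPM in library 2. The 7 stromal and bone-forming markers summed to 13908, 9979.8, 23207 and 29783 CPM in library 1 and 15277, 7179.9, 8137 and 15516 CPM in library 2. In barcodes with 1 to 100 UMIs these lists stood at 55295 and 62527 CPM and at 45143 and 40640.0 CPM, above every range of the members. The part of this RNA in the values of the high ranges was not tested beyond the counts that follow. S100a8 lay at 14708 and 11719 CPM in the top range, against 21649 and 27436 CPM in barcodes with 1 to 100 UMIs. Several of the genes highest in the cells with 75% or more were also high in those barcodes: Cmss1 lay at 19243 and 21184 CPM in the cells and 6073 and 6346 CPM in the barcodes, and Camk1d, Cdk8 and Rn18s-rs5 lay at 513 and 607, 718 and 1251, and 13575 and 11278 CPM there. Alas2, Bpgm, Ube2l6 and Tent5c lay at 23.5 and 129.7, 24.8 and 65.1, 45.1 and 77.6, and 76.5 and 97.2 CPM in these barcodes, against 14795 and 18117, 5446 and 6419, 5764 and 6382, and 4992 and 4708 CPM in the cells with 75% or more.

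After a profile of these barcodes was subtracted, scaled to S100a8 and S100a9, 57 of the 65 higher genes could be measured and 56 were still higher, and 44 of the 105 lower genes could be measured and 42 were still lower. Without the members that held at least 5% of other markers, 187 genes could be measured. Of the 65 higher genes 31 were among them and 30 were still higher, and of the 105 lower genes 20 were among them and 17 were still lower. This left out 37 of the 50 cells with 75% or more in library 1 and 131 of the 432 in library 2. The counts therefore come from a remnant of the same cells and are no independent support.

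A few members carried many macrophage transcripts. Macrophages of the marrow surround erythroblasts in islands and take up their expelled nuclei. Over 7 macrophage markers (C1qa, C1qb, C1qc, Csf1r, Mrc1, Adgre1 and Cd163), 116 of 131 members of library 1 and 907 of 960 of library 2 had 0 UMIs, while 5 and 9 members had 10 or more, a limit set after the values were seen. Those 5 and 9 cells held 96.0% and 93% of the macrophage marker UMIs of the members, and their haemoglobin shares ran from 30.4 to 62.4% and from 25.4 to 74.2%. Their median UMIs were 5078 in library 1 and 21987 in library 2, against 2735 and 4666 in the other members. Slc4a1 lay at 277 CPM in the 5 cells of library 1 and 1916 CPM in the 9 of library 2, against 3488 and 3754 CPM in the other members, and Alas2 at 3121 and 3284 CPM against 4231 and 5387 CPM.

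These few cells set the values of several genes. Gdf15, a hormone that erythroblasts can release, was called higher in the members than in all other barcodes, with log2 ratios of 4.34 and 2.36, and it was 1 of 6 measured genes of the list for stress and inflammation, of which Epas1, Socs1 and Irf1 were lower. The 5 and 9 cells held 178 of 184 Gdf15 UMIs in library 1 and 271 of 349 in library 2, and without them the log2 ratios were -0.39 and 0.28. Apoe, which carries lipids and is abundant in macrophages, had 322 of 345 and 941 of 1045 of its UMIs in these cells, and its log2 ratio against all other barcodes went from 1.80 and 0.98 to -1.90 and -2.27 without them. Hmox1, the enzyme that breaks down haem, had 220 of 246 and 342 of 599 UMIs there, and its ratio went from 1.60 and -0.56 to -1.44 and -1.70. Gdf15 and Apoe were among the 12 lowest genes of the cells with 75% or more, and without the 5 and 9 cells neither reached the minimum of UMIs for that comparison. The counts of genes called were 905 higher and 1128 lower of 5120 against all other barcodes without these cells, and 63 higher and 111 lower of 685 within the members. Doublets were not called, and whether these barcodes held 1 cell or several was not tested.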

How the data were processed

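The deposited values are raw UMI counts, 1 sparse matrix of genes by barcodes for each of 2 libraries. FastQC 0.11.9 and the builds GRCh38 and mm10 are named in the submitters' processing notes, without their roles. Aligner, annotation and strand setting: not given in the sources used here. Rows without a mouse Ensembl gene name, 0.602% and 0.431% of UMIs, were left out. Members and gene lists were chosen with earlier results of these data known.

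Counts were summed over the cells of a class and divided by the UMIs outside Hba-a1, Hba-a2, Hbb-bs and Hbb-bt, since these fill most of a member's UMIs. A gene was measured with at least 20 UMIs in the 2 classes together in each library and at least 5 expected in the smaller class. It was called at 2-fold in the same direction in both libraries, and counts under 3 were set to a floor of 3 UMIs over the class. Intervals are exact at 95%, Poisson for levels and Clopper-Pearson for shares and, conditional on the summed UMIs, for ratios, and cover counting error only. Each library is 1 pool and cells are not replicates, so no p-value was computed. The named genes are the 12 highest and the 12 lowest of each comparison by the smaller of both libraries' log2 ratios, among genes with a symbol and at least 50 UMIs, and genes of the lists and markers. The rule was written for the comparison with erythroid cells under the limit and the highest genes against all other cells, and was carried over to the others. The minimum of 5 expected UMIs, the class with 1 to 25% haemoglobin, the comparison of 75% or more with 25 to 75% and the limit of 10 macrophage UMIs were chosen after the data were seen. Doublets were not called.

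Python 3.11.15 was used with numpy 2.4.6, scipy 1.17.1, pandas 2.3.3 and matplotlib 3.10.9. The calls were run on simulated summed counts with counting error only. Spread between cells and RNA from other cells were not simulated, so the 2-fold calls were not tested against them. Alternatives were another minimum of UMIs, haemoglobin limit, denominator, minimum per gene and a mean over cells, and leaving out cells with markers of other lineages.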

Additional observations from a re-analysis of the deposited data

Results flagged for a closer look

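Barcodes with at least 500 but fewer than 1000 UMIs, which no comparison used, also included some rich in haemoglobin. Of 1952 such barcodes in library 1, 22 had at least 25% haemoglobin, which is 1.13%, and of 2995 in library 2, 151 had, which is 5.04%. Both are above the share that a count of 0 would allow, 0.154% and 0.1%. Very few barcodes are enough to pass that share, so this says only that such barcodes occurred. Of the 22 and 151 barcodes, 1 and 31 had 75% haemoglobin or more, which is 4.55% and 20.5%, against 38.2% and 45% of the members. Alas2 lay at 2566 and 2627 CPM in them. The neutrophil gene S100a8 lay at 8083 and 28999 CPM in them, and the part of RNA from other cells in these barcodes was not tested.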

How the results depend on the processing

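No paired analysis was possible because no result comes from a test: each library is 1 pool, and every ratio was formed within a library and is given for both. The share of members was 1.40% in library 1 and 7.71% in library 2. It became 0.982% and 6.64% with a limit of 40% haemoglobin, 8.33% in library 2 with 15%, 7.20% in library 2 with a minimum of 500 UMIs, and 0.929% and 6.16% without cells that held markers of other lineages. 
With all UMIs as the denominator, 346 genes were higher and 3573 lower against all other barcodes, 92 and 3574 against the erythroid class as first written, 19 and 1914 against cells with 1 to 25%, and 5 and 565 in cells with 75% or more. That scale lowers every ratio of a comparison in a library by 1 amount. Under it 4 lists instead of 12 had a median past 2-fold against the class as first written, and 0 lists were higher and 18 lower in the top than in the lowest range, in place of 4 and 5. Among values past 2-fold, the log2 values that changed sign were the medians of autophagy (-0.037, class as first written), globin partners (-0.077) and ubiquitin (-0.035, both against 1 to 25%), and the levels in the top range of haem synthesis (-1.32), autophagy (-1.31), ubiquitin (-1.16) and glycolysis (-0.37), and medians under 2-fold changed sign too, such as that of haem synthesis against 1 to 25% (-0.60). With a mean over cells, 304 genes were higher against the class as first written and 7 lists passed, 325 were lower against 1 to 25%, and 43 were higher in cells with 75% or more. With a limit of 40%, 581 genes were lower against all other barcodes, and 239 genes were lower and 4 lists, not 2, passed against 1 to 25%. Without a minimum per gene, 1039 were higher against the class as first written and 314 lower against 1 to 25%, and with a minimum of 50 UMIs the latter comparison had 109 higher and 41 lower. The class with 1 to 25% in place of the one first written gave 174 higher and 110 lower. Without members that held markers of other lineages, 41 genes were higher and 23 lower in cells with 75% or more. The causes were not tested. The top range rests on 8159 UMIs outside haemoglobin in library 1, which limits what can be measured there.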
